A study of Homo sapiens with 9 samples.

Results

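The genes described here are 31 targets of the transcription factor p53 other than CDKN1A, the gene of the cell cycle inhibitor p21, in IMR90, human fetal lung fibroblasts with a limited life span in culture. They were taken by symbol from the gene names in the authors' table and joined by Ensembl identifier to the count files. All 31 were found among the 64253 genes counted, and all 31 passed the filter on low counts. They were chosen as known p53 targets, and their measured values were not part of the rule, although earlier results of these data were known when they were chosen. RNA was sequenced from 3 groups of 3 libraries, each lettered a, b and c. Every group was grown in 2% oxygen, used at population doubling 30, infected with lentivirus on 2 occasions 24 hours apart and selected with 3 µg/mL puromycin over 7 days. The control group carried the pLKO.1 vector alone, which the sample labels call empty and the treatment protocol calls GFP. The shRRM2 group carried a hairpin against RRM2, the small subunit of the enzyme that makes deoxyribonucleotides, and then the vector, and the labels call these cells senescent from a lack of dNTPs. In the shRRM2/shp16 group the RRM2 hairpin was followed by one against p16, a product of CDKN2A, and the labels call it a bypass of that senescence. None of the samples analysed here carried the p16 hairpin by itself, so it could be read only on top of RRM2 knockdown. The labels name 1 hairpin for each gene and do not say whether the libraries of a group came from separate cultures, so p-values measure the spread between these libraries, which may be technical.

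p53 is held at a low level in undamaged cells, because its target MDM2 marks it for degradation. After DNA damage or stalled replication it is stabilised and raises transcription of genes for cell cycle arrest, death, repair and metabolism, together with genes that limit p53 itself. In fibroblasts, p53 acting through p21 and p16 acting through the RB protein are the pathways best known for holding a senescent cell out of the cycle.

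The libraries held 15770895 to 24873291 counts in genes, and the members had from 38 to 12034 counts in a library. Levels are given as CPM, the count scaled to a common library total after TMM normalisation, and changes as log2 fold changes with their standard error (SE) from an edgeR fit over 16561 genes, called where the adjusted p is under 0.05. RRM2, the gene targeted in both hairpin groups, was at 481, 491 and 484 CPM in control, 59.98, 63.2 and 63.2 in shRRM2, and 181, 175 and 176 in shRRM2/shp16. CDKN2A was at 5.95, 6.15 and 5.96 CPM in control, 6.79, 6.75 and 5.97 in shRRM2, and 4.33, 3.93 and 4.57 in shRRM2/shp16, and its count covers both the p16 transcript and that of ARF. RRM2 was therefore lower than control in both hairpin groups, and CDKN2A was lower in the group with its hairpin. RRM2 was also 1.51 higher on the log2 scale in shRRM2/shp16 than in shRRM2. In the comparison of these 2 groups, the p16 hairpin and the weaker loss of RRM2 cannot be told apart. The share of uniquely aligned reads assigned to no counted gene feature moved with the groups. It ran from 17.6% to 18.9% in control, 27.7% to 28.8% in shRRM2 and 23.5% to 24.4% in shRRM2/shp16. Where in the genome these reads lie was not examined, and their part in the changes below was not tested. The 8 fibroblast markers summed to 26838 to 27701 CPM in control, 26256 to 27053 in shRRM2 and 22096 to 22696 in shRRM2/shp16. COL1A1 and COL1A2 made up most of that sum, and the markers did not move alike: against control 5 of the 8 were lower and 2 higher in each hairpin group, with VIM at 5334, 3525 and 2136 CPM and COL3A1 at 1722, 1657 and 3631 in control, shRRM2 and shRRM2/shp16. All 4 epithelial markers together stayed at or under 2.15 CPM, the 4 blood markers at or under 0.808, and KRT5 and CD3E were at 0 in every library. The 4 endothelial markers summed to 2.48 to 3.75 CPM in control and shRRM2 and to 5.23 to 5.38 in shRRM2/shp16. In bulk RNA, fewer cells that express a gene and less RNA per cell cannot be told apart.

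RRM2 knockdown was accompanied by higher RNA of 21 of the 31 p53 targets and lower RNA of 3, while 7 did not pass. The share of all tested genes called higher in the same comparison was 29%, and the share called lower was 31.8%. Higher calls therefore made up 67.7% of the members and lower calls 9.7%. The members' median log2 fold change was 0.47, with a range from -0.35 to 1.08, and the median over all tested genes was 0.00. Changes of at least 2-fold were found in 4 members, BTG2, SPATA18, TP53INP1 and DRAM1, beside 10.1% of all tested genes. Most of the called members thus moved by less than a doubling, as did most called genes, of which 1667 of 10079 reached 2-fold. The median size of the log2 fold change was 0.57 among called members and 0.45 among all called genes.

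**Figure D1:**
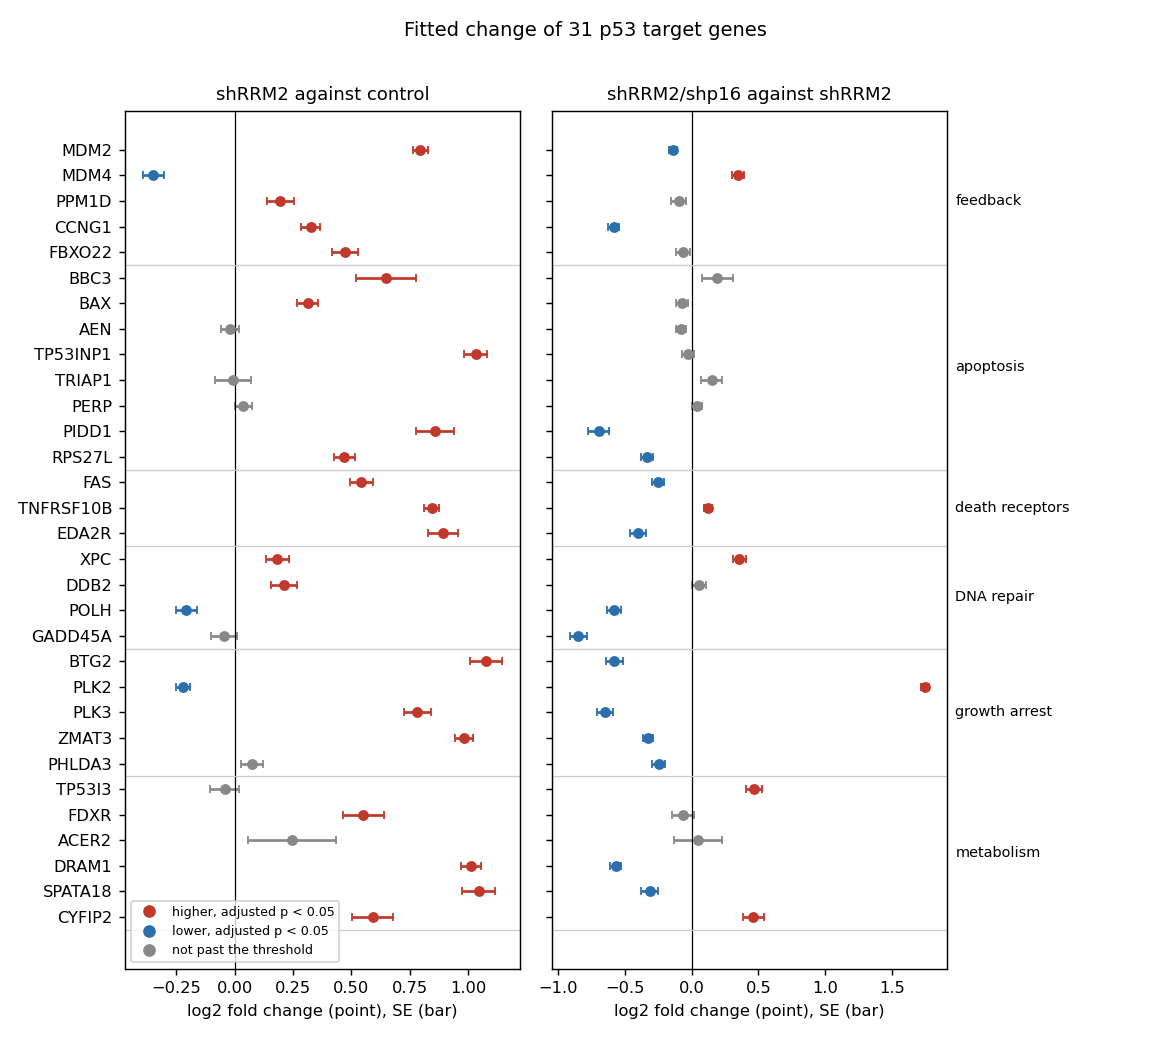
Fitted log2 fold change (points) with its SE (bars) for the 31 p53 target genes, in role order, in shRRM2 against control (left) and shRRM2/shp16 against shRRM2 (right), where red is higher, blue is lower and grey did not pass an adjusted p of 0.05. On the left 21 points are red and 3 blue, and on the right 6 are red and 14 blue, with PLK2 at 1.75 far to the right of the others.

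To show what these genes hold near their starts, the RefSeq promoter table (build GRCh38.p14, from 250 bases before to 50 after each gene start) was searched for the p53 half-site consensus, a palindromic motif of 10 bases that p53 binds in pairs. Of the 31 members 26 matched the table by symbol. The motif was found in 6 of these 26 genes (23.1%), against 8.06% of the 27305 genes in the table, and over windows in 6 of 37 (16.2%) against 6.63% of 35116. A pair of motifs with a spacer of 0 to 13 bases was found in 1 member, DDB2, and in 10 genes of the table in all. These are matches of letters, and no binding was measured. Only exact matches inside these windows were counted. Sites with a mismatch or outside the windows were not searched, so a gene without a match may still hold a p53 site. Each stretch below is read 5′ to 3′ on the gene's strand with the motif in capitals, and each lies in an exon of that gene in GENCODE release 29, untranslated in all but FAS, whose exon has no coding annotation there.
AEN (chr15:88621296-88621325, plus strand): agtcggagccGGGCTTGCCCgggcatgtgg
FAS (chr10:88991299-88991328, plus strand): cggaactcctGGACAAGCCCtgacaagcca
FDXR (chr17:74872995-74873015, minus strand): gggcaggagcGGGCTTGCCCt
PLK2 (chr5:58460199-58460228, minus strand): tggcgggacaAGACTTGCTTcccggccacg
RPS27L (chr15:63157517-63157546, minus strand): ggcctagagcAGACAAGCCCgccccgccgc
DDB2 (chr11:47214979-47214999, plus strand): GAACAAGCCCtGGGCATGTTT
AEN and FDXR carried the same 10 letters. The 6 genes that hold the motif did not move alike: FAS, FDXR, RPS27L and DDB2 were called higher after RRM2 knockdown, PLK2 was called lower, and AEN did not pass. Higher calls made up 67.7% of all 31 members and 29% of all tested genes, and no difference of these 6 genes from the other members is read.

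The genes that feed back on p53 were the first role examined, and 4 of the 5 were higher in shRRM2 than in control. MDM2 (chr12:68808176-68850686, plus strand), the ubiquitin ligase that marks p53 for degradation, was at 208, 233 and 210 CPM in control, 381, 367 and 381 in shRRM2, and 332, 351 and 342 in shRRM2/shp16. Its 3 groups did not overlap, with control lowest and shRRM2 highest. The log2 fold change was 0.80 ± 0.03 (SE) in shRRM2 against control (adjusted p 3.439e-24), -0.14 ± 0.03 between the hairpin groups (adjusted p 0.000262) and 0.66 ± 0.03 for shRRM2/shp16 against control. The small step down from shRRM2 did not pass in a limma fit on the authors' RPKM values, as log2(RPKM + 1), at -0.02 (adjusted p 0.7922). Nor did it pass when limma was run without the RPKM column that did not match its count file, at -0.07 (adjusted p 0.2798). MDM4 (chr1:204516379-204558120, plus strand), a relative of MDM2 that binds p53 and blocks its activity, went the other way. It was at 63.8, 64.8 and 63.8 CPM in control, 48.2, 50.4 and 52.3 in shRRM2, and 63.8, 63.5 and 64.9 in shRRM2/shp16. Every shRRM2 library was below every other library, while control and shRRM2/shp16 overlapped. MDM4 fell by 0.35 ± 0.05 on the log2 scale in shRRM2 against control (adjusted p 7.189e-09) and rose by 0.35 ± 0.05 between the hairpin groups (adjusted p 6.933e-09).

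CCNG1, cyclin G1, which works with a phosphatase that acts on MDM2, was at 85.3, 85.1 and 83.1 CPM in control, 109, 102 and 106 in shRRM2, and 68.7, 75.0 and 68.6 in shRRM2/shp16. It was thus higher than control in shRRM2 (0.33 ± 0.04) and lower than control in shRRM2/shp16 (-0.26 ± 0.04), with no overlap between any of the groups. The step between the hairpin groups was -0.58 ± 0.04 (adjusted p 2.245e-16). PPM1D, the phosphatase that removes activating phosphates from p53, rose by 0.20 ± 0.06 in shRRM2 against control (adjusted p 0.004169), from 30.0 ± 1.2 to 34.5 ± 0.91 CPM (SD, n = 3). That call did not pass in the limma fit on the authors' RPKM values, at 0.16 (adjusted p 0.1019), but passed without the RPKM column that did not match its count file. FBXO22, the substrate-binding part of a ubiquitin ligase that targets p53, rose by 0.47 ± 0.06 in shRRM2 and was 0.41 ± 0.05 above control in shRRM2/shp16. Neither PPM1D nor FBXO22 passed between the hairpin groups, where their log2 fold changes were -0.10 ± 0.06 and -0.06 ± 0.05. Without shRRM2/shp16 replicate c the PPM1D step was -0.15 and passed (adjusted p 0.04271), and without shRRM2/shp16 replicate b PPM1D passed against control, at 0.15 (adjusted p 0.04743).

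CDKN1A, the target best known in senescence, was at 516, 500 and 499 CPM in control, 1031, 1057 and 998 in shRRM2, and 724, 733 and 730 in shRRM2/shp16. Its groups did not overlap, with control lowest and shRRM2 highest, as for MDM2. The log2 fold change was 1.03 ± 0.03 against control (adjusted p 4.971e-32) and -0.50 ± 0.03 between the hairpin groups (adjusted p 6.207e-21).

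Of the 8 genes of the apoptosis role, 5 rose after RRM2 knockdown and 0 fell. TP53INP1 (chr8:94925972-94949411, minus strand), a stress protein that promotes phosphorylation of p53, was at 39.0, 41.1 and 45.2 CPM in control, 83.5, 83.5 and 88.1 in shRRM2, and 78.1, 84.1 and 88.1 in shRRM2/shp16. The 2 hairpin groups overlapped and both lay above control, by 1.03 ± 0.05 (adjusted p 8.398e-22) and 1.005 ± 0.05 (adjusted p 7.064e-22). The difference between the hairpin groups was -0.03 ± 0.05. PIDD1, a scaffold on which a caspase is activated, was at 14.3, 14.1 and 12.0 CPM in control, 26.6, 23.1 and 24.3 in shRRM2, and 17.0, 14.8 and 13.9 in shRRM2/shp16. Its rise of 0.86 ± 0.08 (adjusted p 1.875e-12) was followed by a level in shRRM2/shp16 that overlapped control, 0.69 ± 0.08 below shRRM2 on the log2 scale (adjusted p 3.236e-10). Against control, PIDD1 did not pass in shRRM2/shp16 (0.16 ± 0.09), but passed without control replicate a (0.22, adjusted p 0.04567) or shRRM2/shp16 replicate c (0.23, adjusted p 0.03191). PIDD1 overlaps RPLP2, a ribosomal protein gene with a mean of 5470 counts a library on the opposite strand, so reads of one may have been assigned to the other.

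BBC3 encodes PUMA, a BH3-only protein that triggers mitochondrial death, and was among the least abundant members. It went from 4.62 ± 0.73 CPM in control to 7.24 ± 0.61 in shRRM2 and 8.26 ± 0.83 in shRRM2/shp16 (SD, n = 3). Its log2 fold change was 0.65 ± 0.13 in shRRM2 (adjusted p 3.115e-05) and 0.84 ± 0.12 in shRRM2/shp16 (adjusted p 8.882e-08), both against control. BAX, which forms the pore in the mitochondrial outer membrane, rose by 0.31 ± 0.05 in shRRM2 and was 0.24 ± 0.04 above control in shRRM2/shp16. Between the hairpin groups neither passed, at 0.19 ± 0.12 for BBC3 and -0.07 ± 0.04 for BAX. RPS27L, a relative of a ribosomal protein, rose from 157 ± 19 to 216 ± 3.7 CPM (0.47 ± 0.04, adjusted p 3.008e-12) and was 0.33 ± 0.04 lower on the log2 scale in shRRM2/shp16 than in shRRM2. Against control, RPS27L was 0.14 ± 0.05 higher in shRRM2/shp16 (adjusted p 0.006806), although the groups overlapped, and this call was lost without control replicate a, at 0.04 (adjusted p 0.2913), and with DESeq2 (adjusted p 0.1436). AEN, an exonuclease, TRIAP1, a small mitochondrial protein that counters death, and PERP, a membrane protein of cell junctions, did not pass in shRRM2 against control or between the hairpin groups. Their log2 fold changes in shRRM2 against control were -0.02 ± 0.04, -0.01 ± 0.08 and 0.04 ± 0.04. Between the hairpin groups AEN, at -0.08 ± 0.04 (adjusted p 0.07543), passed with RLE size factors (adjusted p 0.0457) and without shRRM2 replicate c (-0.10, adjusted p 0.02827), and TRIAP1, at 0.15 ± 0.08, passed without shRRM2/shp16 replicate c (0.22, adjusted p 0.02345). In shRRM2/shp16 against control TRIAP1 (0.14 ± 0.07) and PERP (0.08 ± 0.04) did not pass, although both did under some alternatives, TRIAP1 without shRRM2/shp16 replicate c (0.21, adjusted p 0.02314) and PERP without control replicate b (0.10, adjusted p 0.02663). AEN was called lower, at -0.10 ± 0.04 (adjusted p 0.0214), but the direction turned in the limma fit on the authors' RPKM values, at 0.01 (adjusted p 0.9332), and the call was lost without control replicate b (adjusted p 0.07912) or shRRM2/shp16 replicate b or c (adjusted p 0.08972 and 0.1201).

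**Figure D2:**
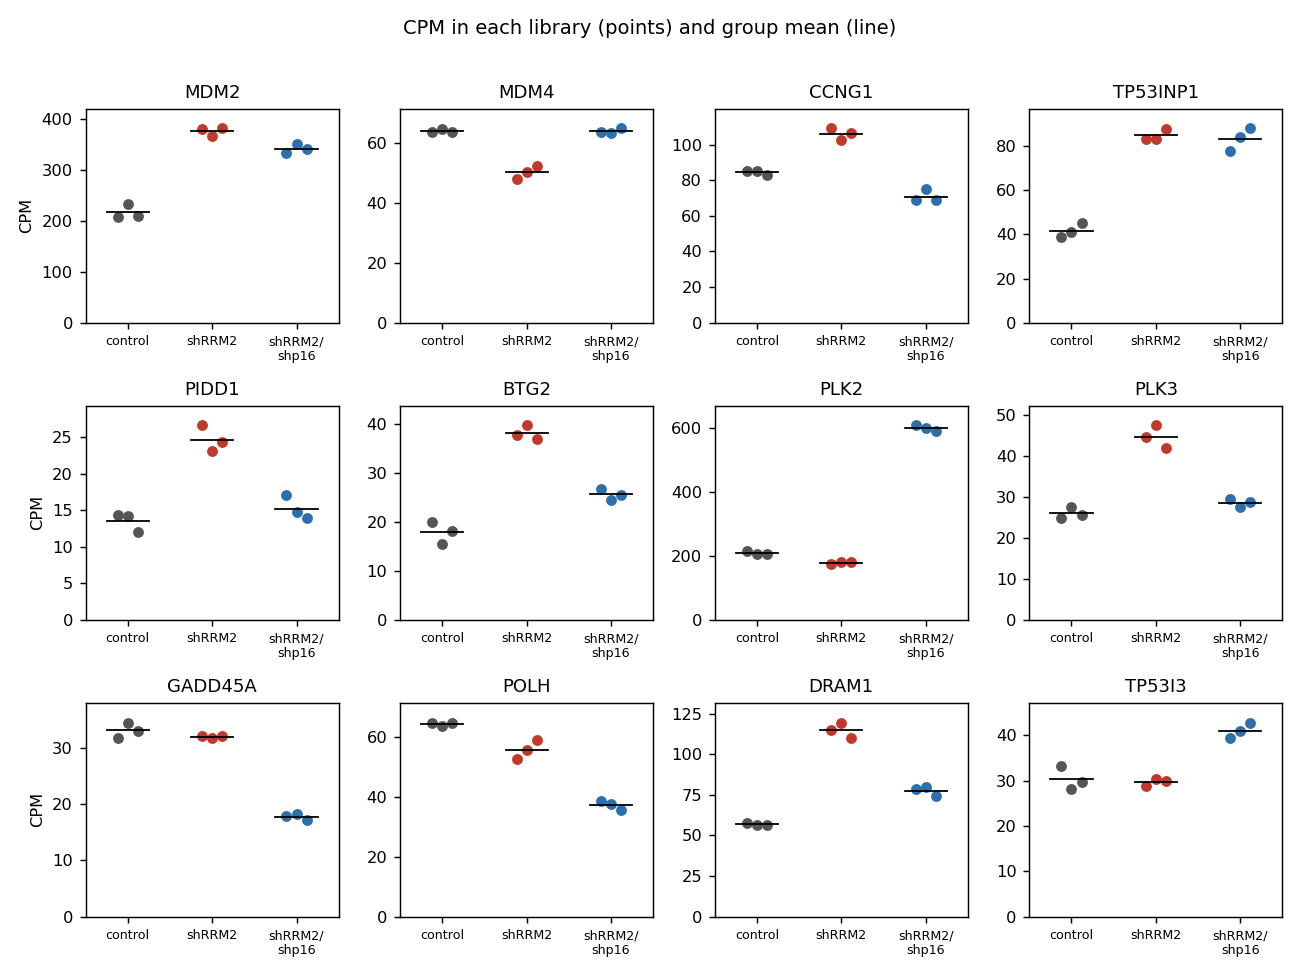
CPM in each library (points) and the mean of each group (black line) for 12 p53 target genes, on linear axes that start at 0, with control in grey, shRRM2 in red and shRRM2/shp16 in blue. MDM2, TP53INP1, BTG2 and DRAM1 are above control in both hairpin groups, PIDD1 and PLK3 are raised in shRRM2 and overlap control in shRRM2/shp16, and PLK2 stands at 591 to 607 CPM in shRRM2/shp16.

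All 3 death receptor genes were higher than control in both hairpin groups. TNFRSF10B, the receptor DR5 for the ligand TRAIL, lay between 138 and 141 CPM in control, between 250 and 253 in shRRM2 and between 266 and 281 in shRRM2/shp16. Its log2 fold change was 0.84 ± 0.03 in shRRM2 (adjusted p 3.484e-26) and 0.97 ± 0.03 in shRRM2/shp16 (adjusted p 5.839e-29), both against control, with a step of 0.12 ± 0.03 between them (adjusted p 0.0003647). EDA2R (chrX:66595637-66639298, minus strand), a receptor of the same family for an ectodysplasin, was at 19.95, 22.6 and 24.4 CPM in control, 40.2, 42.1 and 41.0 in shRRM2, and 32.3, 29.1 and 32.5 in shRRM2/shp16. EDA2R thus sat highest in shRRM2 and in between in shRRM2/shp16, with no overlap, at 0.89 ± 0.06 against control and -0.40 ± 0.06 between the hairpin groups. FAS, the receptor of the Fas ligand, had the same order of groups, with 41.4 ± 0.15, 60.3 ± 1.7 and 50.7 ± 2.8 CPM (SD, n = 3). It rose by 0.54 ± 0.05 in shRRM2 and was 0.25 ± 0.05 lower on the log2 scale in shRRM2/shp16 than in shRRM2. FAS overlaps ACTA2, a smooth muscle actin gene with a mean of 10419 counts a library, on the opposite strand. Reads that fit both TNFRSF10B and its close copies TNFRSF10A, TNFRSF10C and TNFRSF10D may have been left out as not uniquely aligned. How many such reads there were was not examined.

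The 4 DNA repair genes had the lowest median log2 fold change of the 6 roles in shRRM2 against control, 0.07, and with both hairpins they split into 2 above control and 2 below. XPC, which finds distorted DNA for nucleotide excision repair, was at 44.1, 44.4 and 43.8 CPM in control, 48.4, 49.5 and 52.2 in shRRM2, and 62.5, 66.1 and 64.0 in shRRM2/shp16. It rose step by step across the groups with no overlap, by 0.18 ± 0.05 (adjusted p 0.001093) and then by 0.36 ± 0.05 (adjusted p 5.338e-09). DDB2, which recognises ultraviolet damage and holds the paired motif printed above, rose by 0.21 ± 0.06 in shRRM2 against control (adjusted p 0.001318) and was 0.27 ± 0.05 above control in shRRM2/shp16. The first of these did not pass in the limma fit on the authors' RPKM values, at 0.15 (adjusted p 0.06927), but did without the unmatched RPKM column. POLH, the DNA polymerase that copies past ultraviolet lesions, fell at each step, from 64.8, 63.7 and 64.9 CPM in control to 52.8, 55.7 and 58.9 in shRRM2 and 38.6, 37.8 and 35.8 in shRRM2/shp16. Its log2 fold changes were -0.21 ± 0.05 (adjusted p 0.0001619), and -0.58 ± 0.05 between the hairpin groups (adjusted p 1.37e-13). GADD45A (chr1:67685061-67688338, plus strand), a stress sensor of damage and arrest, was at 31.8, 34.5 and 33.0 CPM in control and 32.1, 31.7 and 32.1 in shRRM2, which overlapped. In shRRM2/shp16 it was at 17.9, 18.3 and 17.2, below every other library. GADD45A had the lowest log2 fold change of the 31 members between the hairpin groups, -0.85 ± 0.06 (adjusted p 1.465e-15), while its change in shRRM2 against control was -0.05 ± 0.06. XPC overlaps LSM3 and POLH overlaps GTPBP2 on opposite strands, with means of 841 and 984 counts a library for the overlapping genes.

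Among the 5 growth arrest genes the polo-like kinases PLK2 and PLK3, relatives that respond to stress, went in opposite directions. PLK2 (chr5:58453982-58460260, minus strand) was at 215, 204 and 205 CPM in control, 174, 182 and 180 in shRRM2, and 607, 599 and 591 in shRRM2/shp16. The shRRM2 libraries were the lowest and the shRRM2/shp16 libraries were the highest, with no overlap. PLK2 rose by 1.75 ± 0.03 between the hairpin groups, a fold of 3.36 (adjusted p 4.235e-39), and in shRRM2/shp16 against control its log2 fold change was 1.52 ± 0.03, the highest of the 31 members in each of these 2 comparisons. It fell by 0.22 ± 0.03 in shRRM2 against control (adjusted p 4.215e-08), but in the limma fit on the authors' RPKM values this turned to 0.01 (adjusted p 0.95), and it was again lower, at -0.18 (adjusted p 0.0006514), without the RPKM column that did not match its count file. PLK3 was at 25.0, 27.4 and 25.6 CPM in control, 44.6, 47.5 and 41.9 in shRRM2, and 29.4, 27.4 and 28.7 in shRRM2/shp16. It was highest in shRRM2: 0.78 ± 0.06 above control (adjusted p 1.558e-15), -0.65 ± 0.06 from shRRM2 to shRRM2/shp16 (adjusted p 2.887e-13), and 0.14 ± 0.06 in shRRM2/shp16 against control (adjusted p 0.0523). That last difference passed under other settings, among them without control replicate b (0.18, adjusted p 0.02046) and limma on the 8 matching RPKM columns (0.21, adjusted p 0.003182).

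BTG2, an antiproliferative protein that recruits a deadenylase to mRNA, had the highest log2 fold change of the members in shRRM2 against control. It was at 20.03, 15.5 and 18.2 CPM in control, 37.8, 39.7 and 37.1 in shRRM2, and 26.8, 24.5 and 25.6 in shRRM2/shp16. No groups overlapped, and the changes were 1.08 ± 0.07 against control (adjusted p 8.83e-18) and -0.58 ± 0.06 between the hairpin groups (adjusted p 2.171e-10). ZMAT3, an RNA-binding zinc finger protein that regulates splicing, had the same order at a higher level. It was at 115, 137 and 132 CPM in control, 263, 247 and 247 in shRRM2, and 199, 204 and 202 in shRRM2/shp16. Its changes were 0.98 ± 0.04 (adjusted p 1.156e-24) and -0.32 ± 0.04 (adjusted p 8.678e-10). The steps between the hairpin groups did not pass for BTG2 (-0.33, adjusted p 0.05356) or ZMAT3 (-0.19, adjusted p 0.0625) in the limma fit on the authors' RPKM values. PHLDA3, which competes with the kinase AKT for membrane lipids, did not pass in shRRM2 against control (0.07 ± 0.05) and was 0.24 ± 0.05 lower on the log2 scale in shRRM2/shp16 than in shRRM2 (adjusted p 3.823e-05), at 71.4 ± 1.3, 75.2 ± 6.6 and 63.6 ± 3.8 CPM in the 3 groups (SD, n = 3). That step did not pass in the same limma fit either (-0.14, adjusted p 0.1531). All 3 of these steps passed when limma was run without the unmatched RPKM column.

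**Figure D3:**
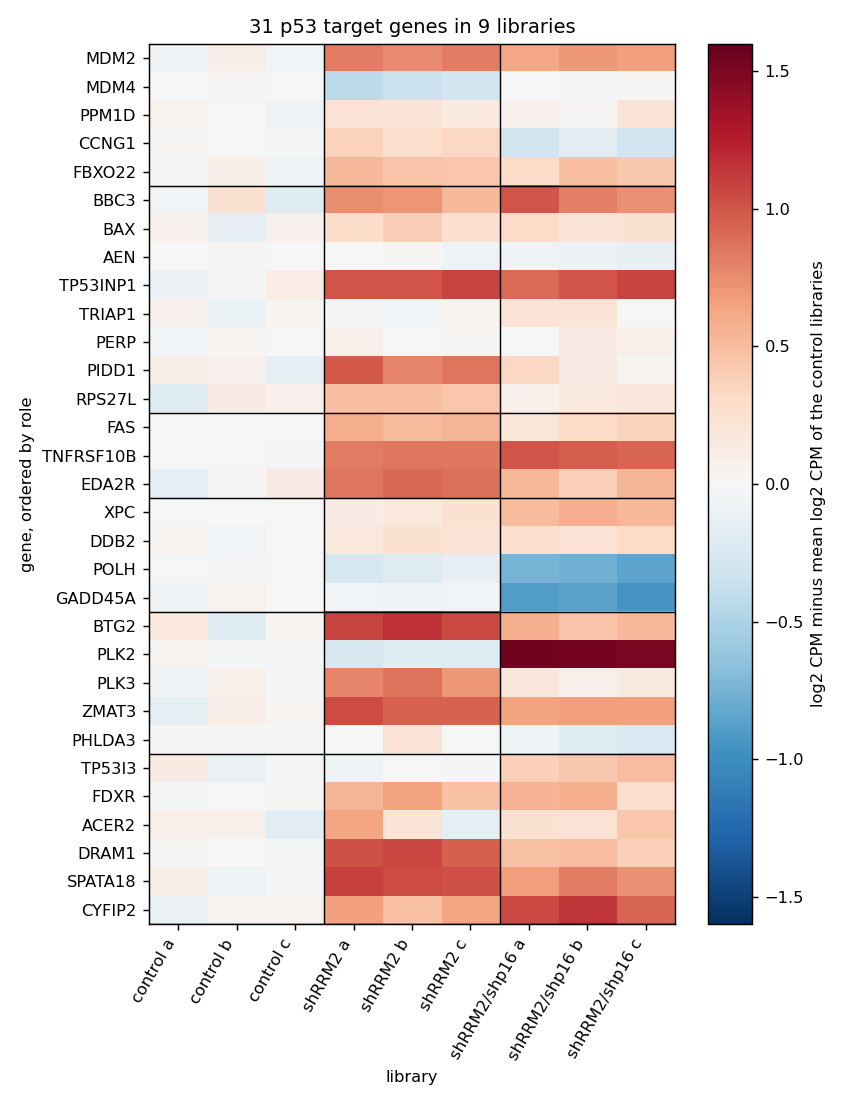
Log2 CPM of each of the 31 p53 target genes in each of the 9 libraries minus the mean log2 CPM of the 3 control libraries, with red above and blue below control, rows in role order and libraries grouped by condition. Most rows are red in all 3 shRRM2 libraries, and in shRRM2/shp16 PLK2 is the darkest red row and GADD45A and POLH are the darkest blue ones.

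The metabolism, autophagy and other effector genes held 4 that rose and 0 that fell in shRRM2 against control. DRAM1 (chr12:101877351-102012130, plus strand), a lysosomal membrane protein of autophagy, was at 57.5, 56.7 and 56.3 CPM in control, 115, 120 and 110 in shRRM2, and 78.8, 79.9 and 74.1 in shRRM2/shp16. SPATA18, a protein of mitochondrial quality control, was at 15.0, 13.3 and 13.9 CPM in control, 30.1, 28.96 and 28.8 in shRRM2, and 22.4, 24.8 and 23.4 in shRRM2/shp16. For both genes control was lowest, shRRM2 highest and shRRM2/shp16 in between, with no overlap. DRAM1 rose by 1.01 ± 0.04 (adjusted p 2.399e-24) and was -0.57 ± 0.04 between the hairpin groups, and SPATA18 rose by 1.05 ± 0.07 (adjusted p 4.518e-17) and was -0.31 ± 0.06.

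TP53I3, a quinone oxidoreductase, and CYFIP2, a subunit of the complex that drives actin branching, were instead highest in shRRM2/shp16. TP53I3 was at 33.1, 28.2 and 29.8 CPM in control, 28.8, 30.3 and 29.8 in shRRM2, and 39.5, 40.8 and 42.8 in shRRM2/shp16. Control and shRRM2 overlapped (-0.04 ± 0.06), and the step between the hairpin groups was 0.47 ± 0.06 (adjusted p 3.663e-09). CYFIP2 was at 9.60, 10.7 and 10.7 CPM in control, 16.2, 14.4 and 16.0 in shRRM2, and 21.4, 22.8 and 19.7 in shRRM2/shp16. It rose at both steps, by 0.59 ± 0.09 (adjusted p 1.648e-07) and 0.46 ± 0.08 (adjusted p 1.754e-06), and it overlaps ADAM19, a far more abundant gene on the opposite strand with a mean of 10392 counts a library. FDXR, which passes electrons to mitochondrial enzymes, rose by 0.55 ± 0.09 in shRRM2 (adjusted p 6.077e-07) and was 0.49 ± 0.09 above control in shRRM2/shp16, with -0.07 ± 0.08 between the hairpin groups. ACER2, a ceramidase of the Golgi, did not pass in any of the 3 comparisons at 2.54 ± 0.24, 3.06 ± 0.83 and 3.15 ± 0.25 CPM (SD, n = 3), where its SE was 0.18 to 0.19, but passed in shRRM2 against control in limma on the 8 matching RPKM columns (0.27, adjusted p 0.03043).

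Between the hairpin groups, 14 of the 31 members were lower in shRRM2/shp16 than in shRRM2, 6 were higher and 11 did not pass. Over all tested genes 29.1% were lower and 31.9% higher, so lower calls made up 45.2% of the members and higher calls 19.4%. The higher members were PLK2, TP53I3, CYFIP2, XPC, MDM4 and TNFRSF10B. PLK2 was the 1 member with a change of at least 2-fold, beside 11.8% of all tested genes. The members' median was -0.08 against 0.01 over all tested genes, and its sign turned to 0.02 in the limma fit on the authors' RPKM values, where 10 members were lower and 7 higher, but was -0.05 on the 8 matching RPKM columns, with 13 lower and 7 higher. Both limma fits also moved the split of all calls. Higher calls made up 61.8% of them on all 9 columns and 59.4% on the 8 matching columns, against 52.3% in the edgeR fit. By role, lower calls were 4 of 5 growth arrest genes and 2 of 8 apoptosis genes, and 6 of those 8 did not pass.

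The cells with both hairpins still differed from control in most members: 19 were higher, 5 lower and 7 did not pass. Over all tested genes 30% were higher and 32.4% lower. The members' median log2 fold change was 0.30 against 0.015 over all tested genes, and 3 members, PLK2, CYFIP2 and TP53INP1, were at least 2-fold above control, beside 12.6% of all tested genes. The 5 lower members were GADD45A (-0.89 ± 0.06), POLH (-0.79 ± 0.05), CCNG1, PHLDA3 and AEN. The PHLDA3 call was lost in limma, at -0.06 on all 9 RPKM columns (adjusted p 0.4896) and on the 8 matching columns (adjusted p 0.3363). In the limma fit on the authors' RPKM values 22 were higher and 3 lower, and 59.3% of all calls were higher against 48.1% in the edgeR fit. These 3 comparisons share libraries, so their values are set side by side and no agreement between them is read.

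**Figure D4:**
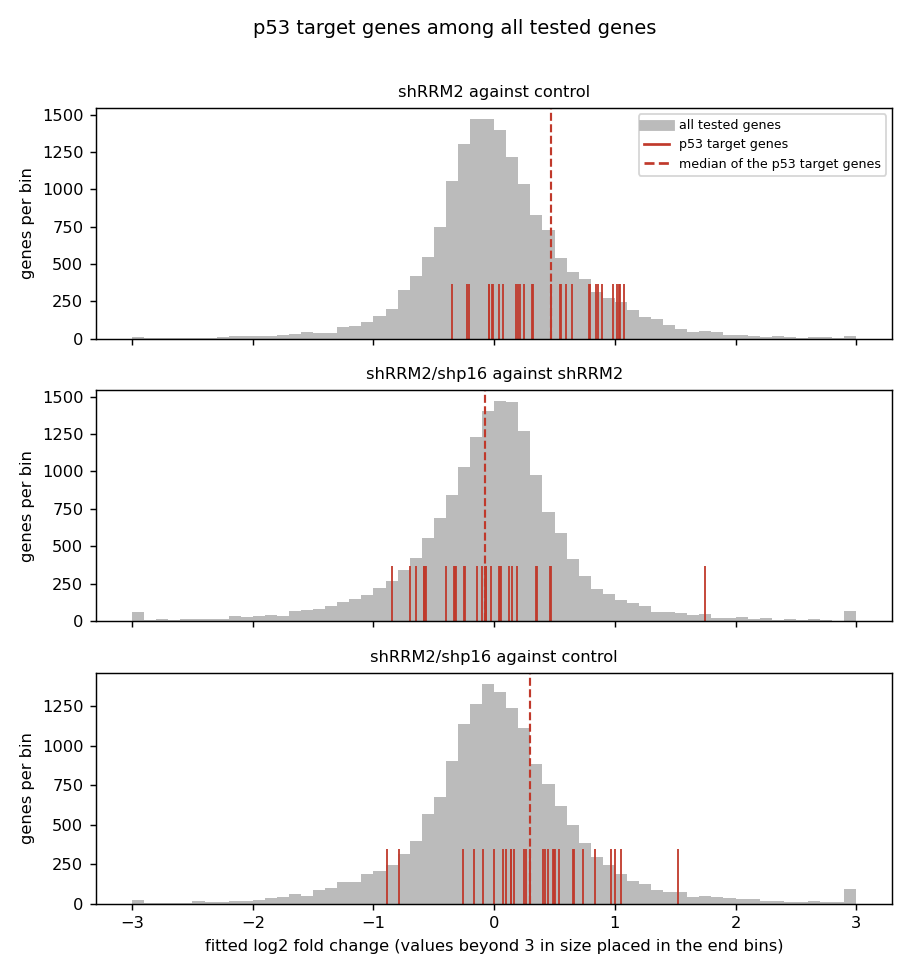
Histogram of fitted log2 fold changes of the 16561 tested genes (grey bars, genes per bin, with values beyond 3 in size in the end bins) and of the 31 p53 target genes (red ticks) with their median (dashed line), for shRRM2 against control (top), shRRM2/shp16 against shRRM2 (middle) and shRRM2/shp16 against control (bottom). From top to bottom the members' medians stand at 0.47, -0.08 and 0.30.

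Levels can be compared between genes only per length, here as mean RPKM. The gene length was calculated back from the counts and the authors' RPKM values, and it can exceed the length of the main transcript. In control the highest members were PLK2 at 43.7 RPKM, BAX at 30.4, PERP at 29.6, CCNG1 at 27.3 and TNFRSF10B at 27.2. In shRRM2 the order was TNFRSF10B at 48.8 RPKM, BAX at 37.8, PLK2 at 37.4, CCNG1 at 34.2 and PERP at 30.4. In shRRM2/shp16 PLK2 stood at 126 RPKM, above TNFRSF10B at 53.2 and BAX at 36.0. The lowest levels were those of CYFIP2 (0.978 RPKM) and ACER2 (1.14) in control, and the same 2 genes were last in both hairpin groups, at 1.47 and 1.37 in shRRM2 and 2.01 and 1.41 in shRRM2/shp16. Differences of a few percent between neighbours in these orders were not tested. The members lie on 15 chromosomes.

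Other genes of the pathway were taken from lists set beside the members. Of 46 tested p53 targets outside the 31, 30 were higher and 6 lower in shRRM2 against control (median 0.39), and 13 were higher and 28 lower in shRRM2/shp16 against shRRM2 (median -0.23), beside the shares of all tested genes given above. The highest in shRRM2 were GDF15, a stress cytokine (14.8 ± 0.24 CPM in control, 93.6 ± 6.0 in shRRM2, 84.5 ± 0.70 in shRRM2/shp16), TGFA, a growth factor with only 3 to 6 counts in a control library and 13 to 16 in an shRRM2 library, and TNFRSF10C, a decoy receptor for TRAIL. Their log2 fold changes were 2.66 ± 0.06, 1.80 ± 0.44 and 1.69 ± 0.10. The lowest were E2F7, a repressor of cell cycle genes (-0.48 ± 0.04), BTG1, a relative of BTG2 (-0.35 ± 0.04), and RAP2B, a small GTPase (-0.29 ± 0.04). BTG1 had the same order of groups as PLK2, at 114 ± 1.7 CPM in control, 89.9 ± 3.5 in shRRM2 and 351 ± 5.2 in shRRM2/shp16. E2F7 was lower again in shRRM2/shp16, at 22.2 ± 1.6 CPM against 60.9 ± 2.6 in shRRM2.

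Genes that act on p53 were examined next. Of 18 tested regulators 2 were higher and 12 lower in shRRM2 against control (median -0.26), and 14 were higher and 1 lower in shRRM2/shp16 against shRRM2 (median 0.245). Over all tested genes 31.8% were lower and 29% higher in the former comparison, and 31.9% higher and 29.1% lower in the latter. The 2 higher in shRRM2 were ATM, the kinase of double-strand breaks (0.43 ± 0.04), and HIPK2, a kinase that phosphorylates p53 (0.13 ± 0.03). The lowest were the deacetylase SIRT1 (-0.61 ± 0.05) and the checkpoint kinases CHEK2 (-0.56 ± 0.11) and CHEK1 (-0.55 ± 0.05). CHEK1 was the gene that was lower again in shRRM2/shp16 against shRRM2 (-0.36 ± 0.06), and it overlaps STT3A on its own strand. All 12 cell cycle genes that p53 lowers indirectly through p21 and the DREAM repressor were lower in shRRM2 (median -1.64). PLK1, a mitotic kinase, fell from 180 ± 2.6 to 41.2 ± 1.2 CPM, CDC20, an activator of mitotic exit, from 152 ± 1.7 to 35.4 ± 2.1, and CCNB1, the mitotic cyclin B1, from 192 ± 7.0 to 48.7 ± 0.61 (SD, n = 3). In shRRM2/shp16, 10 of these 12 were higher than in shRRM2 and all 12 were still lower than in control (median -1.28).

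In the authors' deposited table, where shRRM2/shp16 was tested against shRRM2 with the authors' own method, 8 of the 31 members were marked significant, beside 7.77% of all genes in it. That share is over all 64253 genes, of which only 16561 passed the filter on low counts that all 31 members passed. The 2 shares therefore have unlike bases, and no excess among the members is read from them. In the authors' deposited table PLK2 (log2 fold change 1.68) and TP53I3 (0.48) were the positive ones, and CCNG1 (-0.66), RPS27L (-0.31), EDA2R (-0.41), GADD45A (-0.80), BTG2 (-0.53) and PLK3 (-0.60) the negative ones. All 8 had the same direction in the edgeR fit. Of the 20 members called in the edgeR fit, the other 12 were not marked significant in the authors' deposited table. Among these, TNFRSF10B had the opposite sign in the authors' deposited table, at -0.00666.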

How the data were processed

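Total RNA of 9 IMR90 libraries was depleted of ribosomal RNA and made into stranded libraries, per the labels' protocols. The authors deposited raw counts per Ensembl gene. TopHat2 2.0.9, Cuffdiff and Cufflinks 2.0.2, and build GRCh38, are named in the submitters' processing notes, while the strand setting and the annotation release are not given in the sources used here. Ambiguous reads were 3.74% to 6.02% of uniquely aligned reads and, of all entries, 40.4% to 44.9% did not align uniquely. Tally lines were left out of library sizes. The authors' deposited table also holds log2 RPKM values, which were found by calculating back to be log2(RPKM/1000 + 1). They match the counts within 0.001 in 8 of 9 columns, while shRRM2 replicate c matches for 0.599% of 12684 genes. It also gives a log2 fold change, p-value and q-value of the authors' own test between the hairpin groups, per the file headers. There were 0 columns that matched no sample.

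The test was edgeR 4.0.16 under R 4.3.3 (filterByExpr, TMM, glmQLFit and glmQLFTest on all 9 libraries, 6 residual degrees of freedom), two-sided, with Benjamini-Hochberg adjustment over 16561 genes holding 99.8% of counts. CPM is counts over the TMM-scaled library size, as mean ± SD. The common biological coefficient of variation was 0.027, and libraries of a group differed by 1.44 to 2.95 times sampling noise (chi-square per degree of freedom). On simulated counts for shRRM2 against control the fit recovered 191 of 200 changed genes with 11 false calls among 15570 genes. Members and lists were chosen with earlier results of these data known. Per-library values are printed for the 6 highest and 4 lowest members in shRRM2 against control, the 4 highest and 4 lowest between the hairpin groups, MDM2 and MDM4, and, outside the members, RRM2, CDKN2A and CDKN1A. Up to 3 genes at each end of each other list are named with group means or fold changes. One gene of that rule is not reported here. Positions are from GENCODE release 29 and sequences from RefSeq. Alternatives were RLE size factors, DESeq2 1.42.0, no filter, 10 counts in every library, 6 libraries only, a replicate block, each library left out, and limma 3.58.1 on RPKM with a pseudocount of 1. A pseudocount of 0.1 and a fit on the 8 matching columns were chosen after seeing the data. Counts are not of tagged molecules, so counting error understates the error.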

Additional observations from a re-analysis of the deposited data

How the results depend on the processing

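In shRRM2 against control the members' count of higher calls lay between 19 and 22 and that of lower calls at 2 or 3 under every alternative, apart from the added demand of a 2-fold change, which left 4 higher and 0 lower. That demand left 1 higher and 0 lower between the hairpin groups, and 3 higher and 0 lower in shRRM2/shp16 against control. The median in shRRM2 against control was 0.43 without a filter, 0.50 with at least 10 counts in every library, 0.34 in the limma fit on RPKM with a pseudocount of 1 and 0.38 on the 8 matching columns, and 0.37 to 0.52 with 1 library left out. Between the hairpin groups it was 0.021 and 0.036 in the limma fits with pseudocounts of 1 and 0.1, a turn of direction, -0.046 on the 8 matching columns, where it did not turn, and -0.119 to -0.071 with 1 library left out. In shRRM2/shp16 against control it was 0.37, 0.39 and 0.37 in the limma fits with a pseudocount of 1, of 0.1 and on the 8 columns, and 0.27 to 0.35 with 1 library left out, while lower calls numbered 3 in each of these limma fits. With a pseudocount of 0.1 the median of all genes in that comparison moved to 0.11. PLK2 in shRRM2 against control turned to 0.011 in the limma fits on all 9 RPKM columns (adjusted p 0.95 and 0.9523), and AEN in shRRM2/shp16 against control turned to 0.006, 0.007 and 0.006 in the limma fits. The cause was not tested. PLK3 in shRRM2/shp16 against control, which did not pass, passed under several alternatives, among them RLE size factors (0.14, adjusted p 0.04907). In the same comparison TRIAP1, PERP and ACER2 passed in the limma fit with a pseudocount of 1 (adjusted p 0.01741, 0.006623 and 0.04507). Whether the letters a, b and c pair the libraries was not settled. Deviations of same-letter libraries correlated at -0.12 to 0.23 over 10010 genes. In both other groups, 3 of 9 libraries correlated best with their own letter. For a, b and c the correlations were 0.234, 0.092 and 0.099 between control and shRRM2/shp16. They were -0.094, -0.117 and 0.095 between control and shRRM2, and -0.074, -0.042 and 0.086 between the hairpin groups. With the letter as a replicate block, 21 members were higher and 3 lower in shRRM2 against control, 6 and 14 between the hairpin groups, and 20 and 5 in shRRM2/shp16 against control, where PLK3 was added (0.14, adjusted p 0.04911). Depth limits BBC3 and ACER2, which had the widest standard errors among the members.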
